A study of Mus musculus with 16 samples.

Results

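The potassium channel genes of the mouse hippocampus were followed here across 4 genotypes that differ in the amyloid precursor protein APP and its relative APLP2. Members were all probe sets that the platform annotation assigns to 1 gene symbol beginning with Kcna, Kcnb, Kcnc, Kcnd, Kcnf, Kcng, Kcnh, Kcnip, Kcnk, Kcnma, Kcnmb, Kcnn, Kcnq, Kcns, Kcnt or Kcnv. Kcnc1 and the Kcne and Kcnj genes were set aside. This gave 125 of 45101 probe sets and 62 of 18193 symbols. Of the 62 symbols, 59 name a channel or channel subunit and 3 name antisense or overlapping transcripts (Kcnmb4os1, Kcnmb4os2 and Kcnq1ot1). The rule reads symbols only.

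The study profiled total RNA from hippocampi of male mice of 2 months, all of the strain labelled C56/BL6, on 16 one-colour Affymetrix arrays. Group 1 was N-dCKO, a neuronal double-conditional knockout whose genotype label reads APP-/-; APLP2-/-. The second group was APPKO (APP-/-), the third APLP2KO (APLP2-/-), and the last wild type (WT), with 4 arrays each. The driver that removes the genes in N-dCKO neurons is not named in the labels, and cells outside its reach would keep both genes. Nothing in the labels says that the 4 arrays of a group came from separate animals, so p-values measure the spread between arrays, which may be technical.

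The deleted genes followed the labels. App had a mean signal of 2191 ± 195 on N-dCKO, 2511 ± 180.4 on APPKO and 19650 ± 1410 on APLP2KO arrays, against 18500 ± 1098 on WT arrays (SD, n = 4 each). Aplp2 had 998 ± 122 on N-dCKO, 5778 ± 277 on APPKO and 1162 ± 276 on APLP2KO arrays, against 5984 ± 229 on WT arrays. Neither N-dCKO mean was above that of the single knockout of the same gene. Expression kept in cells outside the driver's reach was thus not seen at these probe sets. Hippocampal markers were well above the low-signal filter on all 16 arrays: Prox1 of dentate granule cells lay between 497 and 837, and Wfs1 of CA1 pyramidal cells between 2318 and 3435. Markers of other cell types differed between groups, microglial ones among them (given beside Kcnk6). Of 14 choroid plexus markers tested, 12 were called lower in N-dCKO, and Ttr read 110, 283, 34290 and 715 on the 4 N-dCKO arrays, against 26340 to 33520 on WT arrays. In bulk tissue, fewer cells of a type and less RNA per cell cannot be told apart.

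Potassium channels set the resting potential of neurons, repolarise the action potential and shape firing rate and transmitter release. Voltage-gated (Kv) channels are tetramers of pore-forming alpha subunits, joined in many cases by cytoplasmic partners such as the Kv beta subunits (Kcnab) of Kv1 channels and the KChIPs (Kcnip) of Kv4 channels. Calcium-activated BK and SK channels end bursts and form the afterhyperpolarisation, sodium-activated channels adapt firing, and two-pore (Kcnk) channels carry the leak current at rest.

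Promoter sequences are shown for 3 of the 4 genes that had the smallest p over the comparisons with WT, to which the results return. They are Kcnab1 and Kcnab2, which encode Kv beta subunits, and Kcna2, which encodes the Kv1 alpha subunit that such beta subunits bind. Kcnab3, which had the smallest p of the 4, is named only. Each is the RefSeq window from 250 bases before to 50 after the most upstream annotated start on GRCm38.p6, written 5′ to 3′ on the gene's own strand, with CG dinucleotides in capitals. Kcnab1 lies at chr3:64948962-64949261 on the plus strand, Kcnab2 at chr4:152477500-152477799 on the minus strand and Kcna2 at chr3:107101317-107101616 on the plus strand.
Kcnab1: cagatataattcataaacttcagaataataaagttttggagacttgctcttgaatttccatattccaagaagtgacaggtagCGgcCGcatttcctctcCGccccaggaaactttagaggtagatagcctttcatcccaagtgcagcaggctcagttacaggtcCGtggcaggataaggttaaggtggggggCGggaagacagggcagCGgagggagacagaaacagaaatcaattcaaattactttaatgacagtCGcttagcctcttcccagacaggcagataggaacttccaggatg
Kcnab2: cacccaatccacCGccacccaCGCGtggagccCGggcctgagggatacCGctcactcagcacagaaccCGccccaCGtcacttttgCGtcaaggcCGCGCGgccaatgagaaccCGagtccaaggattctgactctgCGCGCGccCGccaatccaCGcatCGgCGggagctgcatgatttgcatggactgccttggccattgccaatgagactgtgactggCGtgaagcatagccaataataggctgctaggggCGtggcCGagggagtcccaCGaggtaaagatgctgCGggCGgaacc
Kcna2: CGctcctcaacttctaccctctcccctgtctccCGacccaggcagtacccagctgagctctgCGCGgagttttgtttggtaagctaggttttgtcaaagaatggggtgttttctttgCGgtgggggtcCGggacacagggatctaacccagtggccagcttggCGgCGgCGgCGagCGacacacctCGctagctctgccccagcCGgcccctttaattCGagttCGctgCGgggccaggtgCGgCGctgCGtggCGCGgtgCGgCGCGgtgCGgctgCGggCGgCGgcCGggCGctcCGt
The Kcnab1 window held 7 CG dinucleotides at a GC content of 46.7%, the Kcnab2 window 25 at 62.7% and the Kcna2 window 31 at 66.7%. RefSeq held 51 promoter windows for 32 of the 45 member symbols that were tested, with a median of 9 CG dinucleotides, beside a median of 7 over 32851 windows of all genes. The letters TATAAA, searched on both strands, were in 1 of the 51 windows (1.96%) and in 13.6% of all windows. The cyclic AMP response element letters TGACGTCA were in 0 of 51 windows, beside 1.79% of all. CAGCACC, the first letters of the RE1 silencer element, were in 7 of 51 (13.7%), beside 7.14% of all. None of the 3 motifs was in the windows printed here. Such matches describe letters only, and no binding was measured.

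A gene was represented by its probe set with the highest mean signal, provided that its mean over all 16 arrays passed a filter set at the median of all probe sets (a signal of about 88.2). Of the 125 member probe sets 80 passed and 45 did not. The 80 gave 45 tested symbols, made up of 43 channel genes and 2 non-coding transcripts. The other 17 symbols were not tested: Kcna3, Kcna7, Kcnh5, Kcnh7, Kcnh8, Kcnk4, Kcnk5, Kcnk7, Kcnk15, Kcnk16, Kcnmb1, Kcnmb4os1, Kcnn3, Kcnn4, Kcnq1, Kcns1 and Kcnv2. Differences were tested with limma on log2(signal + 9), a scale that understates the change of dim genes, with Benjamini-Hochberg adjustment over all 11664 genes. A gene was called at an adjusted p below 0.05.

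No potassium channel gene was called in N-dCKO against WT. In this comparison 0.943% of all genes tested were called (110 of 11664). The smallest adjusted p among the members was 0.0698, for Kcnab3. At an unadjusted p below 0.05 there were 6 members, which is 13.3% of the 45, beside 12% of all genes: Kcna2, Kcnab3, Kcnf1, Kcnmb2, Kcnn2 and the non-coding Kcnq1ot1. All 6 had a higher mean in N-dCKO, where 5.11% of all genes were on that side of the same limit. Without WT replicate 4 the 6 became 2, and without N-dCKO replicate 3 they became 3. The median log2 fold change of the 45 members was 0.05, beside -0.00 over all genes, and 27 of the 45 were above 0, beside 48.7% of all genes.

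Neither single knockout gave a called member. In APPKO against WT 0.00857% of all genes were called, and the smallest adjusted p among members was 0.903. At an unadjusted p below 0.05 there were 2 members (4.44%, beside 5.18% of all genes), and both, Kcnk3 and Kcnv1, had the lower mean in APPKO, as did 3.16% of all genes. Without APPKO replicate 1, APPKO replicate 3 or WT replicate 4 the 2 became 1. With the replicate number as a block over all 16 arrays, which applies it to all 4 groups, they became 4 (Kcnip2, Kcnk3, Kcns2 and Kcnv1). On the APPKO and WT arrays alone, where the block pairs only these groups, they became 3 (Kcnip2, Kcnk3 and Kcnv1). In either fit 0 members were called. In APLP2KO against WT 0.129% of all genes were called, and the smallest member adjusted p was 0.23, for Kcnab1. In that comparison 6 members had an unadjusted p below 0.05 (13.3%, beside 7.44% of all genes). Kcnab3, Kcnk10 and Kcnk12 had the higher mean in APLP2KO (6.67%, beside 3.05% of all genes), and Kcnab1, Kcnab2 and Kcnk6 the lower one (6.67%, beside 4.39%). The member medians were 0.00 in APPKO and -0.02 in APLP2KO, beside -0.00 and -0.01 over all genes. The comparisons with WT share the same 4 WT arrays.

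For the probe set used for each gene, and given the spread between arrays, the intervals bound how large a missed difference could be. They hold for each gene alone and do not cover its other probe sets or the 17 symbols not tested. The 95% interval of the log2 fold change lay wholly within 1.5-fold of WT for 37 of 45 members in N-dCKO, 39 in APPKO and 37 in APLP2KO. Over all genes these shares were 88.9%, 91.2% and 90.9%. Within 2-fold the count was 44 of 45 in each comparison, the exceptions being Kcnab3 in N-dCKO and in APLP2KO, and Kcnk3 in APPKO. The standard error of a member's log2 fold change had a median of 0.115 and ran between 0.0532 and 0.314, beside a median of 0.0979 over all genes.

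**Figure D1:**
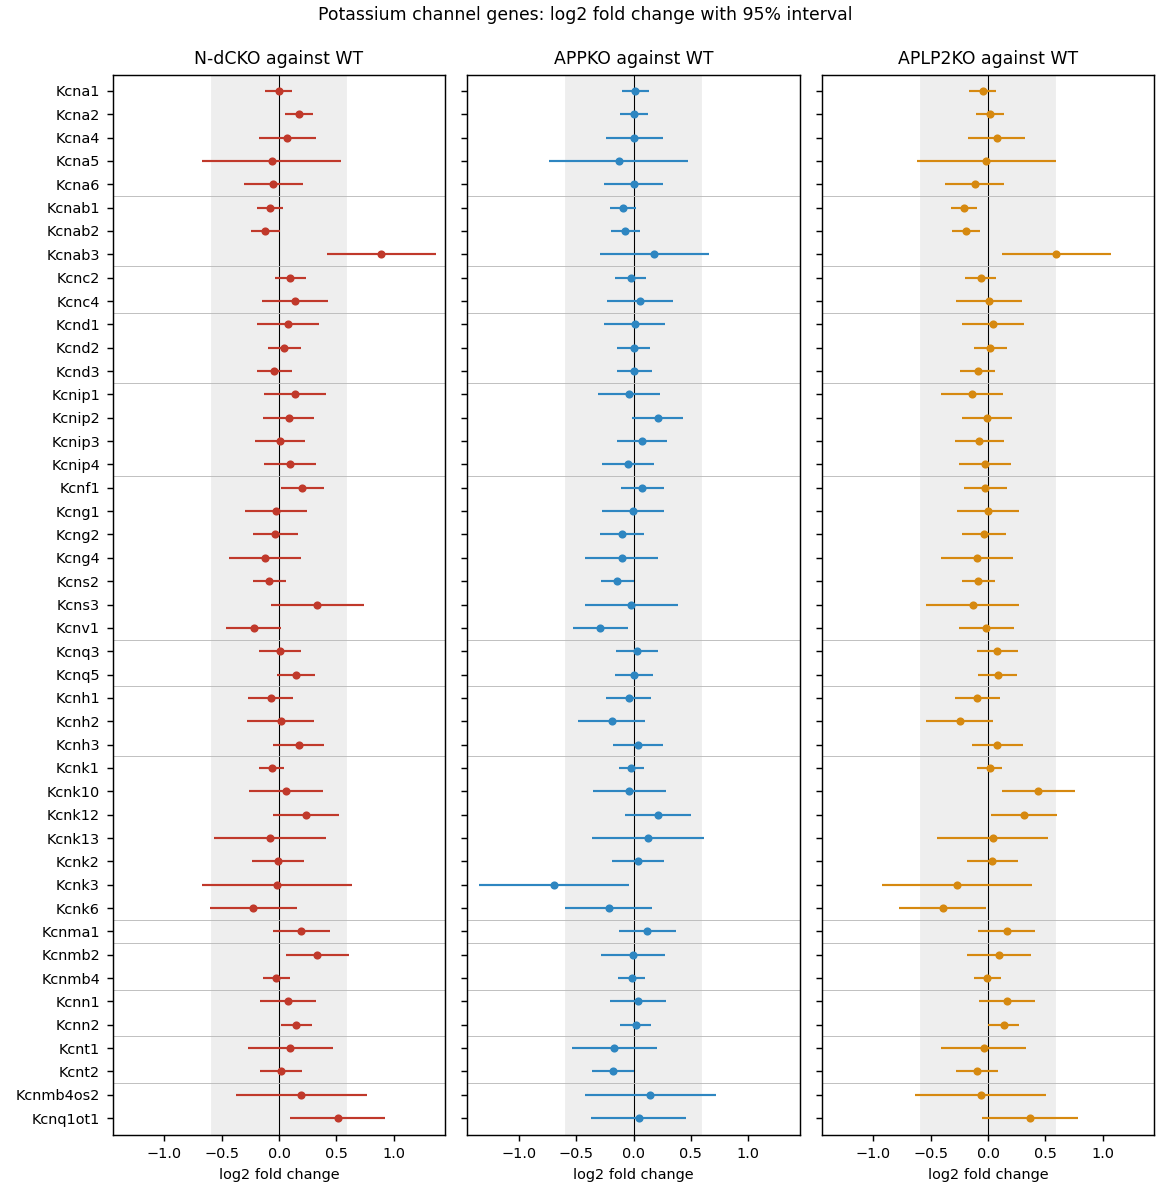
Log2 fold change against WT (horizontal axis) of the 45 tested members (rows, grouped by channel class) in N-dCKO, APPKO and APLP2KO. Points are limma estimates, lines their 95% intervals and the grey band a 1.5-fold change either way; Kcnab3 in N-dCKO at 0.89 lies farthest from 0, and most intervals stay inside the band.

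The 3 smallest unadjusted p-values against WT among the members were those of the Kv beta subunits. These cytoplasmic proteins bind Kv1 tetramers, and the beta subunit encoded by Kcnab1 adds fast inactivation to them. Kcnab3 had signals of 183, 193, 180.2 and 227 on N-dCKO arrays, 157, 155, 114 and 63.5 on APPKO arrays and 179, 159, 123 and 173 on APLP2KO arrays, against 130.5, 68.5, 102 and 112 on WT arrays. All 4 N-dCKO arrays were above all 4 WT arrays, while the APPKO and APLP2KO arrays overlapped WT. Kcnab3 had a log2 fold change of 0.89 ± 0.23 (SE) in N-dCKO, with a 95% interval of 0.42 to 1.37 and a limma adjusted p of 0.0698. It was 0.18 in APPKO (adjusted p = 1) and 0.59 in APLP2KO (adjusted p = 0.535). Fitted on the N-dCKO and WT arrays alone, Kcnab3 was called, with an adjusted p of 0.0369. With the choroid plexus mean of each array as a covariate its log2 fold change was 0.36 ± 0.39 (adjusted p = 0.913). That mean was 5.923 to 8.515 on N-dCKO and 8.79 to 9.733 on WT arrays, without overlap. The fit therefore cannot tell the covariate from the genotype. A second Kcnab3 probe set, near the filter, gave 0.21, -0.20 and -0.07 in N-dCKO, APPKO and APLP2KO, none with an unadjusted p below 0.05.

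Kcnab1 and Kcnab2 lay on the other side. Kcnab1 read 3031, 2848, 2707 and 3061 on N-dCKO arrays, 2799, 2999, 2719 and 3003 on APPKO arrays and 2548, 2686, 2737 and 2654 on APLP2KO arrays, against 3034, 3018, 3276 and 2972 on WT arrays. Every APLP2KO array was below every WT array, and the N-dCKO and APPKO arrays overlapped WT. On the log2 scale APLP2KO differed by -0.21 ± 0.05 (unadjusted p = 0.00104, adjusted p = 0.23), a difference in means of 2656 ± 80.2 against 3075 ± 137. The differences were -0.08 in N-dCKO and -0.09 in APPKO. A second Kcnab1 probe set gave -0.28 in N-dCKO (unadjusted p = 0.00722), -0.13 in APPKO and -0.19 in APLP2KO, so both probe sets were below 0 in all 3 comparisons.

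Kcnab2, whose product promotes the surface and axonal delivery of Kv1 channels, read 4166, 4476, 4405 and 4486 on N-dCKO arrays, 4797, 4771, 4154 and 4413 on APPKO arrays and 3777, 4000, 4545 and 4332 on APLP2KO arrays, against 4724, 4815, 4794 and 4695 on WT arrays. The WT arrays were close together, and all N-dCKO and all APLP2KO arrays were below them. On the log2 scale the difference was -0.12 ± 0.06 in N-dCKO (adjusted p = 0.445), -0.07 in APPKO and -0.20 ± 0.06 in APLP2KO (unadjusted p = 0.00359, adjusted p = 0.358). The second Kcnab2 probe set gave -0.08, 0.04 and -0.07 in the same order of groups, none with an unadjusted p below 0.05.

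Among the Kv1 alpha subunits, Kcna2 encodes Kv1.2, an axonal channel that limits excitability. Kcna2 read 2035, 1950, 1977 and 1885 on N-dCKO arrays, 1742, 1811, 1568 and 1857 on APPKO arrays and 1759, 1830, 1676 and 1778 on APLP2KO arrays, against 1757, 1688, 1845 and 1669 on WT arrays. Every N-dCKO array was above every array of the other 3 groups. The log2 fold change against WT was 0.17 ± 0.06 in N-dCKO (unadjusted p = 0.00824, adjusted p = 0.197), 0.00 in APPKO and 0.02 in APLP2KO. Its second probe set gave 0.18 in N-dCKO (unadjusted p = 0.0263), 0.08 in APPKO and 0.16 in APLP2KO. With each array centred on its median, the Kcna2 difference in N-dCKO was 0.09. Kcna1, with a WT signal of 3834 ± 119, had log2 fold changes of -0.00, 0.02 and -0.05 in N-dCKO, APPKO and APLP2KO. Kcna4, Kcna5 and Kcna6 lay between -0.13 and 0.07 in all 3 comparisons.

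**Figure D2:**
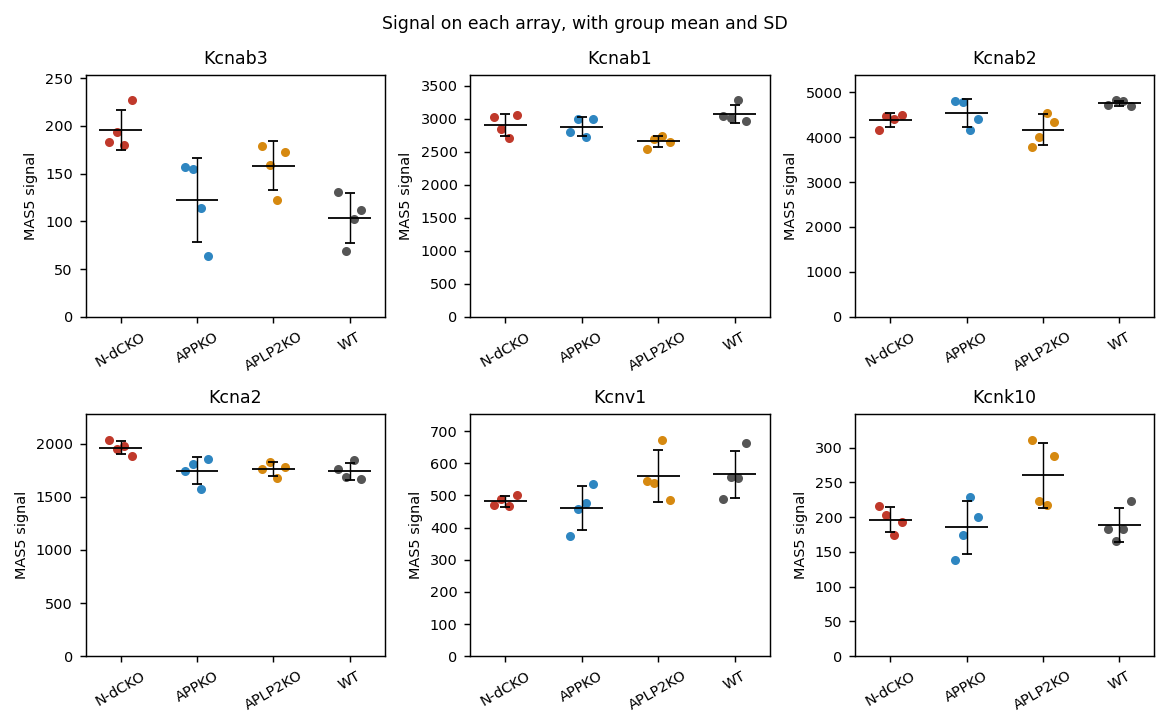
MAS5 signal (vertical axis, starting at 0) of 6 members on each array of N-dCKO, APPKO, APLP2KO and WT. Points are arrays, bars the group mean and SD (n = 4). Kcnab3 and Kcna2 on N-dCKO arrays lie above all WT arrays; Kcnab1 and Kcnab2 on APLP2KO arrays lie below them.

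No Kv3 or Kv4 channel gene and no KChIP gene had an unadjusted p below 0.05 against WT. Kcnc2, a Kv3 channel of fast-spiking interneurons, had 3677 ± 192 on N-dCKO, 3384 ± 268 on APPKO and 3297 ± 284 on APLP2KO arrays, against 3436 ± 66 on WT arrays. Its log2 fold change in N-dCKO against WT was 0.10 (unadjusted p = 0.152). Kcnd2 encodes Kv4.2, which carries the dendritic A-type current of CA1 pyramidal cells. Kcnd2 had 5269 ± 221 on N-dCKO, 5119 ± 401 on APPKO and 5171 ± 314 on APLP2KO arrays, against 5115 ± 480 on WT arrays, with log2 fold changes of 0.05, 0.00 and 0.02. All 3 Kv4 genes lay between -0.09 and 0.08 in the 3 comparisons. Kcnip2, a KChIP that binds Kv4 channels, had 2493 ± 219.8 on N-dCKO, 2725 ± 232 on APPKO and 2349 ± 345 on APLP2KO arrays, against 2365 ± 343 on WT arrays. Its log2 fold change of 0.21 in APPKO had an unadjusted p of 0.0597. Paired by replicate number on the APPKO and WT arrays alone, that unadjusted p was 0.00289 and the adjusted p 0.303. The second Kcnip2 probe set gave -0.20 in N-dCKO (unadjusted p = 0.0473), where the one used for the gene gave 0.08, and -0.04 in APPKO. Kcnip1 had -0.14 in APLP2KO (95% interval -0.41 to 0.13), and its second probe set had 0.09.

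The modifier subunits Kcnf1, Kcng, Kcns and Kcnv form no channel alone and change Kv2 channels when they join them. Kcnv1, which encodes Kv8.1, read 468, 489, 465 and 501 on N-dCKO arrays, 374, 457, 476 and 536 on APPKO arrays and 543, 538, 673 and 484 on APLP2KO arrays, against 488, 556, 552 and 664 on WT arrays. The APPKO arrays were spread widely and overlapped WT. Its log2 fold change was -0.22 in N-dCKO, -0.29 ± 0.11 in APPKO (unadjusted p = 0.0196, adjusted p = 0.903) and -0.02 in APLP2KO. All 3 Kcnv1 probe sets above the filter were below 0 in APPKO, at -0.29, -0.36 and -0.24. Kcnf1 read 949.8, 915, 893 and 988 on N-dCKO arrays, against 829, 799, 857 and 769 on WT arrays, with no overlap between these groups. Kcnf1 differed by 0.20 ± 0.09 on the log2 scale (adjusted p = 0.371). Kcns3 had a log2 fold change of 0.33 in N-dCKO (unadjusted p = 0.1), and Kcns2, at 907 ± 58.4 in WT, had -0.14 in APPKO (unadjusted p = 0.0535).

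Kv7 channels carry the M current, which restrains repetitive firing. Kcnq3 had 2377 ± 263 on N-dCKO, 2409 ± 208 on APPKO and 2493 ± 92.2 on APLP2KO arrays, against 2367 ± 271 on WT arrays, with log2 fold changes of 0.01, 0.03 and 0.08. Kcnq5 had 0.15 in N-dCKO (unadjusted p = 0.0823). In the Kcnh group of ether-a-go-go channels, Kcnh2, which encodes the ERG channel, had log2 fold changes of 0.01 in N-dCKO, -0.19 in APPKO and -0.25 in APLP2KO (unadjusted p = 0.0911 in the last). Kcnh1 lay between -0.09 and -0.04 in the 3 comparisons.

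Among two-pore channels 5 of 12 symbols were below the filter. Kcnk1, at 5131 ± 168 in WT, had log2 fold changes of -0.06, -0.02 and 0.01 in N-dCKO, APPKO and APLP2KO. Kcnk10 encodes TREK-2, a leak channel opened by stretch and lipids. Kcnk10 read 216, 203, 174 and 193 on N-dCKO arrays, 139, 174, 228 and 199.8 on APPKO arrays and 311, 223, 218 and 288 on APLP2KO arrays, against 183, 165, 183 and 223 on WT arrays. APLP2KO and WT arrays overlapped at 218 and 223. Kcnk10 had a log2 fold change in APLP2KO of 0.44 ± 0.15 (unadjusted p = 0.00997, adjusted p = 0.47), and it was 0.06 in N-dCKO and -0.04 in APPKO. Kcnk12, which encodes a related subunit, had 0.23, 0.22 and 0.32 in N-dCKO, APPKO and APLP2KO.

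Kcnk3, an acid-sensitive leak channel, had the largest standard error of these comparisons. Kcnk3 read 163, 115, 149 and 177 on N-dCKO arrays, 108, 125, 30.4 and 147 on APPKO arrays and 75.1, 155, 143 and 138 on APLP2KO arrays, against 125, 155, 157 and 172 on WT arrays. The APPKO mean was pulled down by 1 array at 30.4, and the other APPKO arrays overlapped WT. Kcnk3 had a log2 fold change in APPKO of -0.69 ± 0.31 (adjusted p = 0.926), and leaving out APPKO replicate 3 moved it to -0.25.

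Kcnk6, a two-pore channel subunit, is given beside a cell-type list. Kcnk6 read 188, 216, 231 and 258 on N-dCKO arrays, 234, 152, 251 and 276 on APPKO arrays and 167, 179, 236 and 210.4 on APLP2KO arrays, against 339.8, 202, 226 and 298 on WT arrays. Its log2 fold change was -0.23 in N-dCKO, -0.22 in APPKO and -0.39 ± 0.18 in APLP2KO (unadjusted p = 0.0421, adjusted p = 0.652), and every group overlapped WT. The 16 microglial markers tested had a median log2 fold change of -0.40 in N-dCKO, where 6 were called lower, -0.15 in APPKO and -0.21 in APLP2KO, where 0 were called. No microglial marker was above 0 in any of the 3 comparisons. The mean log2 level of the list was 9.10 to 9.32 on N-dCKO, 9.30 to 9.54 on APPKO and 9.27 to 9.43 on APLP2KO arrays, against 9.57 to 9.66 on WT arrays. The Kcnk6 estimate was lowest in APLP2KO, and the microglial median was lowest in N-dCKO. Kcnk6 was the only member plotted beside this list. Of the 7 two-pore genes tested, 2 were above 0 in N-dCKO, 3 in APPKO and 5 in APLP2KO. Kcnk13, a two-pore gene near the filter, had -0.08, 0.125 and 0.04 in the same order. It was thus above 0 in APPKO and APLP2KO, where the microglial medians were below 0. The list's part in the Kcnk6 values was not tested.

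**Figure D3:**
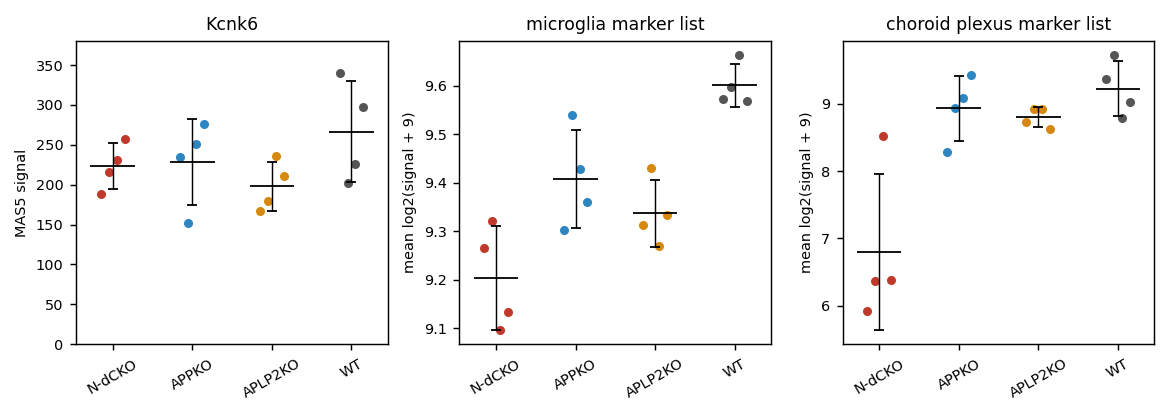
MAS5 signal of Kcnk6 (left, axis starting at 0) and, beside it, the microglial and choroid plexus marker lists as averages of log2(signal + 9) (middle and right, axes not starting at 0) on each array. Points are arrays and bars the group mean and SD (n = 4); the microglial list is lower on every knockout array than on every WT array, while Kcnk6 overlaps WT in each group.

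Kcnma1 encodes the pore of the BK channel, and Kcnmb2 a beta subunit that makes it inactivate. Kcnmb2 read 200.1, 261, 302 and 263 on N-dCKO arrays, 205, 181, 214 and 198 on APPKO arrays and 209, 217, 232 and 197.5 on APLP2KO arrays, against 209, 241, 189.8 and 166 on WT arrays. On 3 of the N-dCKO arrays the signal was above that of all WT arrays, and 1 lay among them. This gave a log2 fold change of 0.33 ± 0.13 in N-dCKO (adjusted p = 0.3), -0.00 in APPKO and 0.09 in APLP2KO. Kcnma1 had 0.19 in N-dCKO, 0.12 in APPKO and 0.16 in APLP2KO by the probe set used for the gene. Its 5 probe sets above the filter gave 0.19, 0.23, -0.06, 0.48 and 0.61 in N-dCKO, with an unadjusted p of 0.00473 for the fourth of these (adjusted p = 0.283 over all probe sets). Those 5 probe sets did not share a sign, and no transcript form is assigned to them here. Kcnmb4, the neuronal beta subunit of BK channels, lay within 0.03 of WT in all 3 comparisons.

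Kcnn2 encodes the SK channel of the hippocampal afterhyperpolarisation. Kcnn2 read 1476, 1573, 1587 and 1599 on N-dCKO arrays, 1422, 1467, 1511 and 1296 on APPKO arrays and 1382, 1592, 1675 and 1538 on APLP2KO arrays, against 1457, 1423, 1329 and 1409 on WT arrays. N-dCKO and WT arrays did not overlap. The log2 fold change was 0.15 ± 0.07 in N-dCKO (adjusted p = 0.36), 0.02 in APPKO and 0.14 in APLP2KO. Kcnn1, also an SK channel gene, had 0.08, 0.04 and 0.17 in the same order (unadjusted p = 0.172 in APLP2KO). Kcnt2, a sodium-activated channel subunit, had 0.01, -0.18 and -0.10 in N-dCKO, APPKO and APLP2KO, with an unadjusted p of 0.0553 in APPKO.

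Kcnq1ot1 is a long non-coding RNA transcribed antisense to Kcnq1 and encodes no channel. It read 252, 384, 398 and 293 on N-dCKO arrays, 266, 215, 168 and 307 on APPKO arrays and 267, 293, 230.5 and 412 on APLP2KO arrays, against 226, 219.8, 291 and 180.4 on WT arrays. Log2 fold changes were 0.51 in N-dCKO (unadjusted p = 0.0183), 0.04 in APPKO and 0.37 in APLP2KO. All 3 of its probe sets above the filter were above 0 in N-dCKO, at 0.51, 0.76 (unadjusted p = 0.00299, adjusted p = 0.234 over all probe sets) and 0.22. With the Gapdh 3′ to 5′ ratio of each array as a covariate the N-dCKO value of the probe set used for the gene was -0.02. That ratio, a measure of RNA length, was 0.797 to 0.834 on N-dCKO, 0.745 to 0.806 on APPKO and 0.741 to 0.817 on APLP2KO arrays, against 0.752 to 0.786 on WT arrays. The ratios of N-dCKO and WT arrays did not overlap, so the fit cannot tell the ratio from the genotype.

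Agreement between probe sets of the same gene gave a further view. Of the 45 tested symbols, 25 had at least 2 probe sets above the filter. All probe sets of a gene had the same sign for 18 of the 25 in N-dCKO, 9 in APPKO and 13 in APLP2KO. No gene had probe sets on opposite sides with an unadjusted p below 0.05 each. Fitted one by one over 45037 probe sets, 0 of the 125 member probe sets were called, with a smallest adjusted p of 0.161 in N-dCKO, 0.749 in APPKO and 0.349 in APLP2KO. In that fit 0.215%, 0.00666% and 0.0777% of all probe sets were called in the same comparisons. Of the 45 member probe sets below the filter, 2 had an unadjusted p below 0.05 in N-dCKO, 3 in APPKO and 2 in APLP2KO. These were 4.44%, 6.67% and 4.44%, beside 8.34%, 5.8% and 6.65% of all 45037 probe sets.

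**Figure D4:**
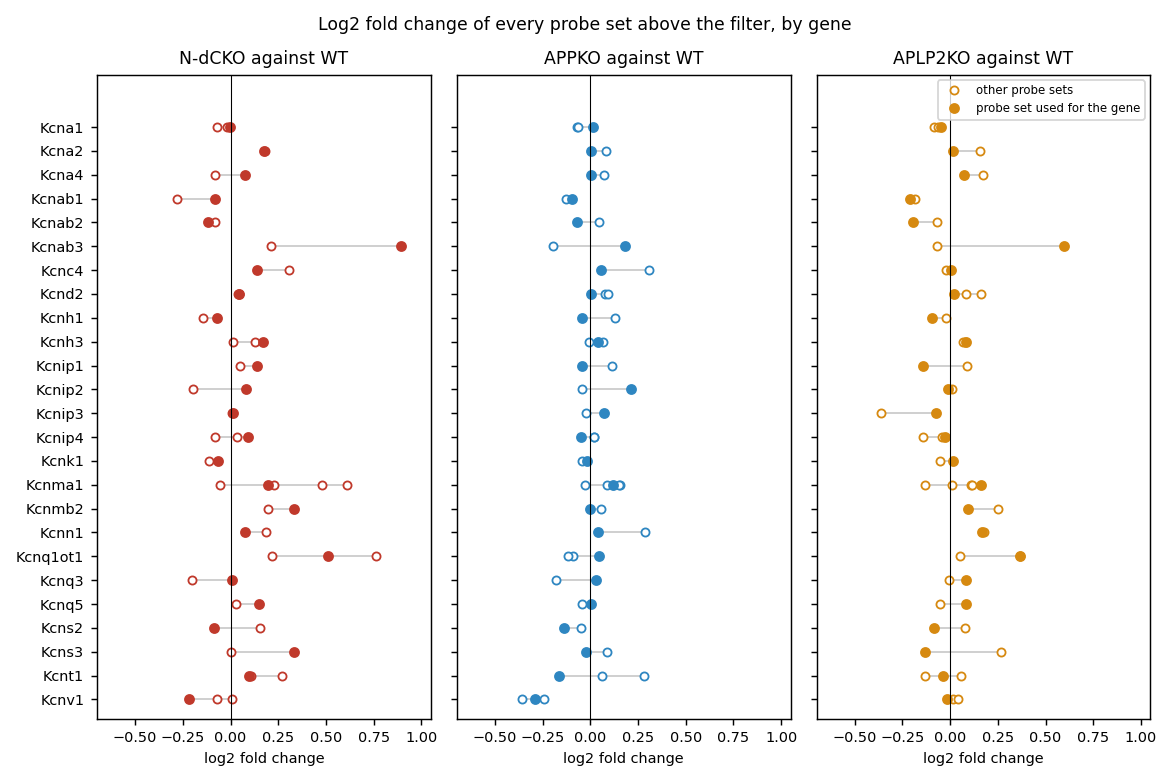
Log2 fold change against WT (horizontal axis) of every probe set above the filter, for the 25 member symbols with at least 2 of them (rows). Filled points are the probe set used for the gene, open points the others, and grey lines join the probe sets of 1 gene. Kcnab3 probe sets lie far apart, and both Kcnab1 probe sets lie below 0 in every panel.

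Groups that did not overlap were counted as well. In N-dCKO against WT 5 members had no overlap (11.1%, beside 7.36% of all genes), with Kcna2, Kcnab3, Kcnf1 and Kcnn2 higher (8.89%, beside 2.9%) and Kcnab2 lower (2.22%, beside 4.46%). In APPKO against WT there were 0 (beside 2.63% of all genes), and in APLP2KO against WT 2, Kcnab1 and Kcnab2, both lower (4.44%, beside 4.4% in either direction and 2.69% lower).

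The double knockout was also set against each single knockout. In N-dCKO against APPKO 0.352% of all genes were called and 0 members, with a smallest member adjusted p of 0.332. The 6 members with an unadjusted p below 0.05 (Kcna2, Kcnab3, Kcnk3, Kcnmb2, Kcnq1ot1 and Kcnt2) all had the higher mean in N-dCKO. They were 13.3% of the members, beside 7.71% of all genes in either direction and 3.6% higher. Kcnab3 differed by 0.71 ± 0.23 and Kcna2 by 0.17 ± 0.06, and neither gene's N-dCKO arrays overlapped its APPKO arrays (1.95% of all genes were higher without overlap). Their second probe sets above the filter gave 0.41 for Kcnab3 and 0.10 for Kcna2, neither with an unadjusted p below 0.05. In N-dCKO against APLP2KO 0.0257% of all genes were called and 0 members, with a smallest member adjusted p of 0.463. At an unadjusted p below 0.05 there were 7 members (15.6%, beside 8.44% of all genes). Kcnk10 was lower in N-dCKO (-0.38 ± 0.15; 4.31% of all genes were on that side), and Kcna2, Kcnab1, Kcnc2, Kcnf1, Kcnip1 and Kcns3 were higher (13.3%, beside 4.13%). These values are for the probe set used for each gene. The second probe sets above the filter gave 0.03 for Kcna2, -0.09 for Kcnab1 and -0.04 for Kcnip1, none with an unadjusted p below 0.05. Without APLP2KO replicate 1 the 7 became 4, and they became 2 when the choroid plexus list mean was a covariate. The 6 against APPKO became 2 with a filter at the 75th percentile and 3 with that covariate. The list mean was 5.923 to 8.515 on N-dCKO, 8.28 to 9.433 on APPKO and 8.621 to 8.926 on APLP2KO arrays. It thus went largely with the genotype. Over all genes, the count called against APLP2KO was 35 without N-dCKO replicate 3, and against APPKO 19 without APPKO replicate 4.

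An interaction was tested as N-dCKO less APPKO less APLP2KO plus WT. N-dCKO is labelled a neuronal conditional knockout and the single knockouts are not. The contrast therefore cannot tell a departure from the sum of the single losses apart from a difference in the cells that lost the genes. No gene was called, member or not (0%), with an unadjusted p below 0.05 for 4 members (8.89%) and for 4.15% of all genes, or 2.04% on the positive side, where all 4 lay. Without N-dCKO replicate 4 the 4 became 1, and without N-dCKO replicate 3 the count over all genes was 11, with 0 members among them. The members were Kcnab1 (0.23 ± 0.08), Kcnh2 (0.45 ± 0.20), Kcnk3 (0.95 ± 0.44) and Kcnt2 (0.29 ± 0.12), each with an adjusted p of 1. The second Kcnab1 probe set above the filter gave 0.03 (limma unadjusted p = 0.798). The Kcnk3 value took in a low array in each single knockout, at 30.4 in APPKO and 75.1 in APLP2KO. A moderated F-test over all 4 groups called 0.566% of all genes and 0 members, and at an unadjusted p below 0.05 it took in 10.1% of all genes and 7 members (15.6%). In it Kcnab3 had the smallest member p, with an unadjusted p of 0.00383 and an adjusted p of 0.18, followed by Kcnab1 with 0.00947 and 0.262.

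Genes whose products bind or traffic these channels were followed as a list of 36 partners, of which 24 were tested. None was called in any comparison with WT, and the list medians were 0.02, -0.00 and 0.02 in N-dCKO, APPKO and APLP2KO. Pex5l encodes TRIP8b, the trafficking partner of the HCN pacemaker channels. Pex5l read 849.7, 942, 1172 and 1026 on N-dCKO arrays, against 1344, 1248, 1182 and 1372 on WT arrays, and these groups did not overlap. Its log2 fold change was -0.37 ± 0.09 in N-dCKO (unadjusted p = 0.000528, adjusted p = 0.0535), -0.02 in APPKO and -0.20 in APLP2KO, and without N-dCKO replicate 3 it was called (adjusted p = 0.0115). That array also had the highest Ttr of its group, and a link between Ttr and Pex5l was not tested. Dpp10, an auxiliary subunit of Kv4 channels, had 0.34 ± 0.12 in N-dCKO (adjusted p = 0.224), and the scaffold gene Ank2 had 0.13. In APPKO the smallest p-values of the list were those of Dlg2 (0.12), Ank2 (0.09) and Hcn2 (0.20), and in APLP2KO those of Pex5l, Cntn2 (-0.32) and Cask (-0.16).

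None of the 62 member symbols lies on chromosome 16, which carries App, or on chromosome 9, which carries Aplp2. The other cell-type lists gave the following medians in N-dCKO, APPKO and APLP2KO against WT. Neuronal markers had 0.05, 0.05 and 0.08, interneuron markers 0.13, -0.01 and -0.01, and astrocyte markers 0.16, 0.05 and 0.09. Oligodendrocyte and myelin markers had -0.51, -0.45 and -0.06, with 1 called lower in N-dCKO. Of the interneuron markers 1 was called higher in N-dCKO and 1 lower in APLP2KO. Of 6 striatal markers tested, 1 was called lower in N-dCKO. The part of the glial and choroid plexus values in the channel values was not tested. The fits with the choroid plexus covariate cannot tell it from the N-dCKO genotype.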

How the data were processed

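Total RNA was hybridised as biotinylated cRNA to 16 Affymetrix arrays, 1 per sample. The deposited intensity values are MAS5 signals, a method that the submitters' processing notes name; no version is stated there. The intensity columns are linear, and each array's mean after trimming 2% of probe sets at either end was 500 on all 16 as deposited. Array medians ran from 79.7 to 102. The 16 arrays, 4 per group, limit the precision.

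Each signal was raised by a pseudocount of 9 and log2 transformed. Control probe sets (64) and those with several symbols (932) or none were not used for genes. A filter kept probe sets above the median of all mean log2 signals (22551), and the brightest one per symbol gave 11664 genes. A group-means model over 16 arrays was fitted (limma 3.58.1, R 4.3.3), with an intensity trend in the variance and 12 residual degrees of freedom, and tested on simulated data. Alternatives covered normalization, pseudocount, filter, probe set rule, variance model, weights, replicate block, covariates and left-out arrays. Gene names and promoters came from the RefSeq table of GRCm38.p6, in which all 62 members were found. No genome build is given for the probe sets. Replicate numbers come from the sample titles. Deviations from group means over all genes correlated at 0.192 to 0.301 in all 4 same-numbered pairs of APPKO and WT arrays. These were taken as paired in the fits with the block, and the group-means model does not use the pairing. Over all 16 arrays the block applies the number to every group, not to APPKO and WT alone. No other pair of groups had every correlation over 0.1. The members and lists were chosen with earlier results of these data known. Genes named were the 10 members with the smallest p in each comparison with WT, 3 in the others, the brightest WT member of each class, and, of the partners, 3 per comparison with WT. Some other members, such as Kcna4, Kcnip1 and Kcnk13, were given beside these. Results of the remaining marker lists (medians in N-dCKO, APPKO and APLP2KO against WT) were -0.08, -0.08 and -0.03 for dentate granule neurons, 0.01, -0.00 and 0.03 for pyramidal neurons, -0.09, -0.09 and 0.08 for oligodendrocyte precursors, -0.04, 0.01 and 0.05 for endothelial and mural cells, -0.41, -0.26 and -0.11 for ependyma, -0.13, 0.09 and 0.17 for leptomeninges, -0.07, -0.12 and 0.00 for thalamus, and 0.07, -0.01 and -0.10 for striatum.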

Additional observations from a re-analysis of the deposited data

Results flagged for a closer look

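By Dixon's criterion at the 95% level, 4 member values stood apart from the other 3 arrays of their group. Chance gives about 1 such group in 20, and here 4 of 112 groups (3.57%, over 28 genes) were found. Kcnt2 read 800 on N-dCKO replicate 3, against 966 to 996 on the other N-dCKO arrays. Kcnk3 read 75.1 on APLP2KO replicate 1, against 138 to 155 on the other APLP2KO arrays. Kcnma1 read 822 on APLP2KO replicate 2, against 1110 to 1170 on the others. Kcnh1 read 782 on WT replicate 3, against 618 to 630 on the other WT arrays. No explanation was tested for any of them.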

How the results depend on the processing

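The count of potassium channel genes called stayed at 0 in every comparison and in the test over 4 groups under each alternative run, with 1 exception. Fitted on the N-dCKO and WT arrays alone, 1 member was called in N-dCKO against WT, Kcnab3 with an adjusted p of 0.0369. Leaving out each array in turn gave 0 to 0 called members in every comparison, with a smallest adjusted p of 0.0739 in N-dCKO, 0.594 in APPKO and 0.214 in APLP2KO against WT. The log2 fold change of Kcnab3 in N-dCKO against WT ran between 0.36 (choroid plexus covariate) and 1.01 over the alternatives, with adjusted p from 0.0369 to 0.913, and always above 0. That of Kcna2 ran between 0.09 and 0.20, Kcnn2 between 0.06 and 0.21, Kcnf1 between 0.10 and 0.23, and Kcnmb2 between 0.25 and 0.75. Kcnq1ot1 (-0.02 to 0.76) and Kcnv1 (-0.31 to 0.02) in N-dCKO changed sign only with the Gapdh ratio as a covariate. In APLP2KO, Kcnab1 ran between -0.29 and -0.18, Kcnab2 between -0.27 and -0.13, and Kcnk10 between 0.35 and 0.52. In the 5 other pairs of groups, 3 of 20 correlations of same-numbered arrays were over 0.1, so these groups were not taken as paired. The block over all 16 arrays nevertheless applies the number to them too. The correlations were 0.0822 to 0.208 for N-dCKO and APLP2KO, and -0.0218 to 0.0365 for N-dCKO and WT. Still, 13 of all 16 arrays correlated best with an array of their own number. What the replicate number stands for was not tested. With the replicate number as a block the count called stayed at 0, with an adjusted p of 0.0623 for Kcnab3 in N-dCKO. On the APPKO and WT arrays alone with the block (this fit was chosen after seeing the data), 0 members were called (smallest adjusted p 0.303, Kcnip2). The partner Pex5l in N-dCKO was called under median centring, array weights, the block and without N-dCKO replicate 3 (adjusted p as low as 0.0115). At an unadjusted p below 0.05, the members numbered 3 to 9 in N-dCKO, 1 to 5 in APPKO and 2 to 7 in APLP2KO against WT over the settings other than left-out arrays, beside 6, 2 and 6 as reported. In N-dCKO they numbered 2 to 8 against APPKO and 2 to 9 against APLP2KO, beside 6 and 7, and 2 to 5 in the interaction, beside 4. All genes or probe sets called ran between 1 and 60 against APPKO, beside 41, and 1 and 30 against APLP2KO, beside 3. Over all genes, the 110 called in N-dCKO against WT numbered 198 with the block and 3 with the covariate for choroid plexus, the 1 in APPKO became 6 in the paired fit of those groups alone, and the 15 in APLP2KO became 3 with the filter at the 75th percentile and 31 with each probe set alone. With 1 array left out the counts over all genes ran between 45 (without WT replicate 2) and 115 in N-dCKO, 1 and 16 (without APPKO replicate 2) in APPKO, and 9 (without WT replicate 1) and 18 in APLP2KO. The cause of these changes was not tested. Neither the choroid plexus mean nor the Gapdh ratio overlapped between N-dCKO and WT arrays. Fits with these covariates cannot tell them from the genotype. With 4 arrays a group, members had a standard error of up to 0.314 (Kcnk3).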
